A study of Mus musculus with 6 samples.

Results

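The genes described here are 44 chemokine and interleukin receptor genes, counted in N9 microglia, a line of immortalized mouse microglia, the resident macrophages of the brain. They were taken by name from the deposited table of read counts, which holds 54532 genes, and each name matched a single line. Positions are those of the deposited table, on the mouse build mm10 (GRCm38). The list holds 20 chemokine receptors and 22 interleukin receptor chains, together with the ligand Il15 and the secreted inhibitor Il18bp. RNA-seq was performed on 3 libraries from cells kept with lipopolysaccharide (LPS), a glycolipid shed by gram-negative bacteria, at 1 µg/ml for 6 h, and on 3 libraries from untreated control cells. All cells were N9 cells without a further genetic change named in the labels, so the data describe a single cell line. The comparison asks which receptors the cells had transcripts for, and which of these changed in LPS-stimulated versus control cells.

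Chemokine receptors are seven-pass membrane proteins that couple to G proteins and steer cells along gradients of small secreted proteins, the chemokines. Atypical chemokine receptors bind such ligands without that coupling and remove or present them. Interleukin receptors are mostly built from a chain that binds the ligand and a chain shared between several receptors, such as the common gamma chain encoded by Il2rg, and they signal through Janus kinases and STAT factors or, in the interleukin-1 family, through the adaptor MyD88. In the brain, microglia use such receptors to respond to injury, infection and signals from other cells.

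The libraries held between 16363767 and 17956772 counts, and 3 counts correspond to between 0.161 and 0.19 CPM (counts scaled to a common library size). Intervals and limits on counts cover counting error only, since reads lacking molecular identifiers can be copies of 1 molecule. The labels do not say whether the replicates came from separate cultures, and p-values measure the spread between these libraries. Of 12 microglia and macrophage markers, 9 were tested, and the 12 summed to 1902 to 1966 CPM in control and 2148 to 2216 CPM in LPS libraries. Csf1r, the receptor that keeps these cells alive, stood at 432 ± 14.6 and 482 ± 4.82 CPM (SD, n = 3), whereas the microglial genes Aif1 and P2ry12 did not exceed 9 counts and Sall1 did not exceed 1. No library held over 3 counts of any of 8 T and NK cell markers, over 1 count of any of 4 B cell markers or over 2 of any of 5 mast cell and basophil markers. The 5 neutrophil markers summed to 3.56 to 4.42 CPM in control and 10.3 to 11.6 CPM in LPS libraries, S100a8 being the one that rose, and Ly6g had no count. The 3 endothelial markers summed to 0.283 to 0.861 and to 1.65 to 2.32 CPM, and of these Kdr alone was tested, through its LPS libraries alone. The part of these in the results was not tested. The 8 hepatocyte markers summed to between 0.409 and 20.9 CPM in the control libraries and to at most 0.853 CPM with LPS, the high values being in control replicates 2 and 3. All 14 genes called below, the ligand Il15 among them, were also called, in the same direction, with control replicate 2 or control replicate 3 left out. These libraries were not left out together, so each such fit still held 1 of them.

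Of the 44 genes, 33 (75%) had more than 3 counts in at least 1 library, against 29.5% of all genes in the table, and 19 passed edgeR's filter on low counts and were tested. No read was counted on Ccr7, Ccr8, Ackr1 or Il2ra in any library, which at this depth allows up to 3 counts. Ccr7 guides dendritic cells and T cells to lymph nodes, and Il2ra is the high-affinity chain of the interleukin-2 receptor. A further 7 genes, Ccr4, Ccr6, Ccr9, Cxcr1, Ackr2, Ackr3 and Il17rb, held at most 3 counts in every library. Another 14 genes were above 3 counts in some library but below the filter. Of the 9 CC chemokine receptors only Ccr1 was tested, and of the 4 atypical receptors only Ccrl2. For Ccr2, the receptor for Ccl2 that marks blood monocytes, the control libraries held 0, 1 and 1 counts and the LPS libraries 2, 4 and 1. The requirement of at least 1 count in all 3 libraries of a group, in place of more than 3 in any library, gave 35 detected genes.

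**Figure D1:**
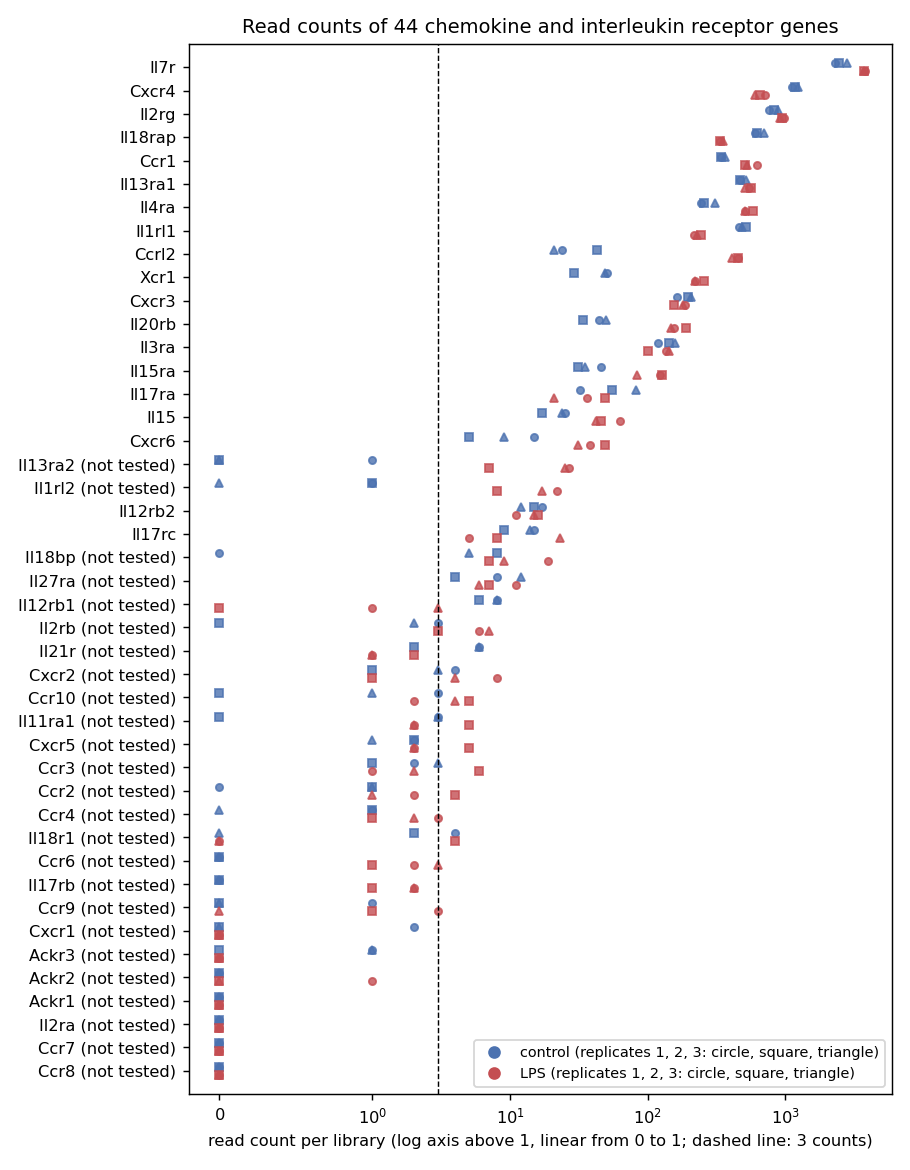
Read counts of the 44 genes in each of 6 libraries, with counts on the horizontal axis (logarithmic above 1, linear from 0 to 1), genes ordered by the larger group mean, control libraries in blue, LPS libraries in red, and a dashed line at 3 counts. The 19 tested genes run from Il7r, with up to 3790 counts, to Il12rb2 and Il17rc with at most 23, and 4 genes have no count at all.

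Among the 19 tested genes, 11 rose and 3 fell in LPS-stimulated cells at an adjusted p under 0.05 (edgeR's quasi-likelihood test), and 5 did not pass the test. Of all 12296 tested genes, 18.7% were higher and 15.7% lower by the same call. Differentially expressed genes (DEG) were those that also changed by more than 1.5 on the log2 scale in either direction. By that rule 5 of the 19 were up-regulated (Ccrl2, Xcr1, Cxcr6, Il20rb and Il15ra), beside 2.4% of all tested genes. By glmTreat, with 1.5 as the null value, 3 of these 5 remained (Ccrl2, Xcr1 and Il20rb), and DEG among all genes went from 326 to 183. None was a down-regulated DEG by edgeR, where 0.252% of all tested genes were. That count was also 0 at an unadjusted p under 0.05 and 0 by DESeq2. Of the 19 tested genes, the libraries of the groups did not overlap in 14, the same 14 that were called, with LPS above in 11 and below in 3. This held for 23.7% of all tested genes in the higher direction and 21.5% in the lower. The median log2 fold change was 0.33 over the 19 genes and 0.003 over all tested genes. Cxcr6 reached the level of the filter, 0.589 CPM, in 3 LPS libraries but in 1 control library, so that it was tested because of its level with LPS. Without Cxcr6, 10 of 18 rose, 4 of 18 were up-regulated DEG and the median was 0.31. In RNA from whole cultures, fewer cells with a transcript and less of it per cell cannot be told apart.

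**Figure D2:**
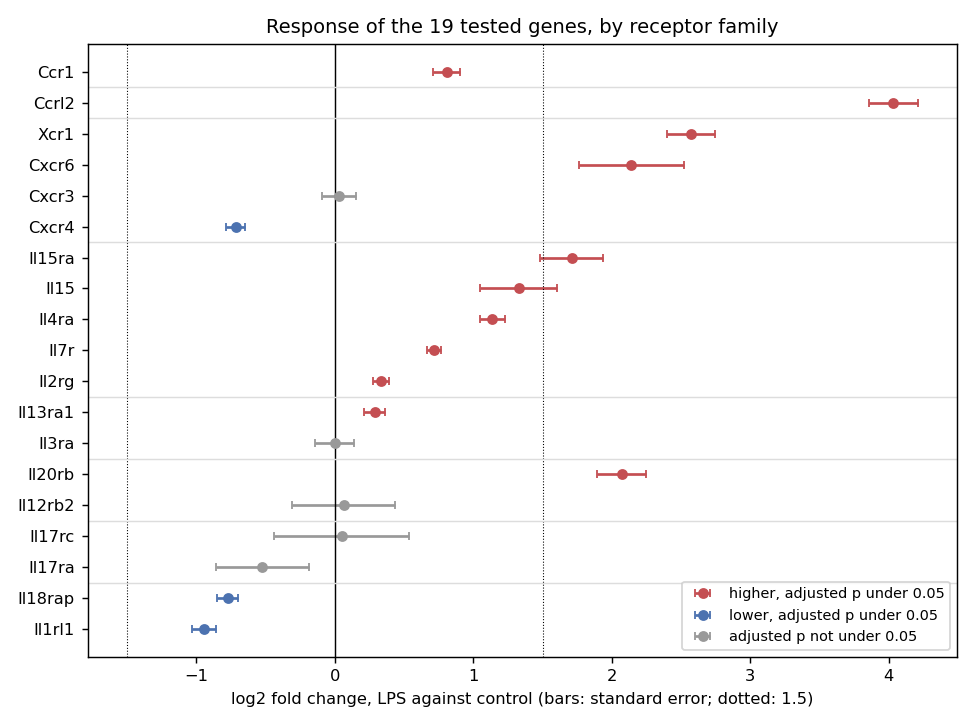
Log2 fold change of LPS against control (horizontal axis, bars showing the standard error) for the 19 tested genes, grouped by receptor family, with red for higher and blue for lower at an adjusted p under 0.05, grey for neither, and dotted lines at 1.5 in both directions. Ccrl2 stands farthest to the right at 4.03, while Cxcr4, Il18rap and Il1rl1 are the 3 genes to the left of 0 that pass the test.

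Ccrl2 (ENSMUSG00000043953), on chromosome 9 from 111054486 to 111057519 on the minus strand, encodes an atypical receptor that binds the chemoattractant chemerin and presents it to other cells. In untreated cells 24, 43 and 21 reads were counted on it in replicates 1, 2 and 3, and after LPS 456, 450 and 411. Every LPS library therefore lay well above every control library, with control replicate 2 the highest of its group. Ccrl2 rose from 1.66 ± 0.690 to 27.1 ± 1.96 CPM (SD, n = 3), with a log2 change of 4.03 (standard error, SE, 0.18, edgeR adjusted p = 1.4e-10), or 16.4-fold. Ranked among all tested genes by CPM per kilobase of gene length, Ccrl2 stood at percentile 10.5 in control cells and at percentile 60.0 with LPS.

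Xcr1 (ENSMUSG00000060509), on chromosome 9 from 123852315 to 123862029 on the minus strand, encodes the receptor for Xcl1 and is known from dendritic cells that cross-present antigen. It had 51, 29 and 49 reads in untreated cells and 221, 258 and 221 after LPS. No LPS library came near the control libraries. Xcr1 rose from 2.42 ± 0.693 to 14.4 ± 1.19 CPM (SD, n = 3), a gain of 2.57 in log2 units (SE 0.18, edgeR adjusted p = 2.4e-08). No count of its ligand gene Xcl1 was found in any library.

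The sequences ahead of the start sites of Ccrl2 and Xcr1, the tested genes with the largest increases, are shown to give the context of these changes. They are the 250 bases before the RefSeq start on GRCm38.p6, on the minus strand, at chr9:111057519-111057768 for Ccrl2 and chr9:123862030-123862279 for Xcr1. For Ccrl2, which has 3 RefSeq start windows, the window nearest to the start of the gene in the deposited table was taken. The third sequence holds 30 bases of the window of Il4ra on the plus strand, at chr7:125552281-125552310, with a match to a kappa B motif in capitals.
Ccrl2: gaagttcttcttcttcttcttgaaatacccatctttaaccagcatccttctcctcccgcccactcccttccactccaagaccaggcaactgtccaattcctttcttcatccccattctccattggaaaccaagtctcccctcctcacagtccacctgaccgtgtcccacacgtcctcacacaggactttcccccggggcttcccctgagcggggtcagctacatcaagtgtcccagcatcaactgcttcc
Xcr1: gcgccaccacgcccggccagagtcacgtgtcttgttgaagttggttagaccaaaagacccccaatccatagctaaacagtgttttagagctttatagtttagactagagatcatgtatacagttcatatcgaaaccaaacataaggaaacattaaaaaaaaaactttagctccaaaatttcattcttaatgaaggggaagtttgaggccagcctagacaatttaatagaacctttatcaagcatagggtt
Il4ra: ccttctcgcaGGAAAGCCCCgcgcggcgcg

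RefSeq windows of 250 bases before to 50 after a start were at hand for 36 of the 44 genes, 44 windows in all. They were searched on both strands for 3 motifs, a subset of kappa B sites (3 G, any 2 bases, 3 T, then 2 C), the interferon-stimulated response element (TTTC, any 2 bases, TTTC) and the STAT motif TTCNNNGAA. Kappa B sites outside this subset were not searched for, in the window of Ccrl2 or in any other. The letters of the subset were found in 3 of the 44 windows (Ccr3, Il17rc and Il4ra), and in 1.63% of all 32851 windows of the table. Of these genes Il4ra rose, Il17rc did not pass the test and Ccr3 was not tested. In Il4ra the match lies on the strand opposite to the gene, starting 21 bases into the transcript. The interferon motif was in none of the 44 windows and in 3.44% of all. The STAT motif was in the windows of Ccr6, Il12rb2, Il18r1 and Il7r, and in 8.3% of all windows. No window held more than 1 of the 3 motifs. These are matches of letters in a short window and say nothing about the binding of a factor.

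Cxcr4 and Ccr1 were the most abundant chemokine receptors per gene length, and they moved in opposite directions. Cxcr4 (ENSMUSG00000045382), the receptor for Cxcl12 that retains and guides leukocytes and progenitor cells, is located at 128588199 to 128592293 on chromosome 1 and had 1125, 1179 and 1239 reads in untreated cells and 710, 650 and 604 after LPS. Every LPS library was below every control library. Cxcr4 fell from 66.4 ± 0.625 to 40.5 ± 4.17 CPM (SD, n = 3), with a log2 change of -0.71 (SE 0.07, edgeR adjusted p = 1.0e-06). Its ligand gene Cxcl12 did not exceed 5 counts in any library.

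Ccr1 (ENSMUSG00000025804), a receptor for several inflammatory CC chemokines, lies on chromosome 9 from 123962124 to 123968692. Its counts of 340, 343 and 362 in the control libraries lay below the 624, 508 and 531 of the LPS libraries, among which replicate 1 was the highest. Its level rose from 19.6 ± 0.225 to 34.3 ± 4.61 CPM (SD, n = 3), a gain of 0.81 in log2 units (SE 0.09, edgeR adjusted p = 9.1e-06). Of the chemokines that Ccr1 binds, Ccl3 and Ccl7 were up-regulated DEG. Ccl5, which reached the level of the filter in 1 control and 3 LPS libraries, had a log2 fold change of 6.13, and Ccl9 rose by 0.74 (SE 0.06, edgeR adjusted p = 1.9e-07). Ccl6, with 7 to 21 counts per library, had a log2 fold change of -0.13 (SE 0.45, edgeR adjusted p = 0.857).

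Cxcr6 (ENSMUSG00000048521), the receptor for the membrane-bound chemokine Cxcl16, lies on chromosome 9 from 123806475 to 123811760. It was the tested chemokine receptor with the fewest counts, 15, 5 and 9 in untreated cells and 38, 49 and 31 after LPS. The libraries did not overlap between the groups, and the change in CPM, from 0.548 ± 0.301 to 2.43 ± 0.551 (SD, n = 3), was 2.14 on the log2 scale (SE 0.38). Since edgeR's filter let Cxcr6 in through its LPS libraries, its p is taken from DESeq2, whose filter uses the mean over all libraries (adjusted p = 1.2e-04). It was not a DEG by glmTreat. Over the fits that lacked 1 library each, this value ran from 1.83 to 2.62. Cxcr6 lies within the span of Fyco1 on the opposite strand. Fyco1 had 479 to 729 counts per library and rose by 0.38 (SE 0.09, edgeR adjusted p = 0.00389), and since the use of strand in counting is not given in the sources used here, its part in the counts of Cxcr6 was not tested. The ligand gene Cxcl16 rose from 2.07 ± 0.445 to 4.51 ± 1.34 CPM (SD, n = 3), by 1.12 (SE 0.26, edgeR adjusted p = 0.00387).

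Cxcr3 (ENSMUSG00000050232), the receptor for Cxcl9, Cxcl10 and Cxcl11, had 164, 197 and 206 reads in untreated cells and 188, 156 and 182 after LPS. The libraries overlapped, and the log2 fold change was 0.03 (SE 0.12, edgeR adjusted p = 0.882). Its ligand Cxcl10 went from 1.58 ± 0.289 to 208 ± 18.6 CPM (SD, n = 3) in the same libraries, while Cxcl9 did not exceed 3 counts and Cxcl11 did not exceed 4. The untested Cxcr2, a receptor for neutrophil-attracting chemokines, and Cxcr5, the receptor for Cxcl13, held at most 8 and 5 counts in any library. Ccr10, the CC receptor for Ccl27 and Ccl28, held at most 5.

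The make-up of the chemokine receptor transcripts, is given as shares of the summed CPM per kilobase of all 20 genes. Cxcr4 took 71.4%, 71.3% and 71.5% in untreated cells and 40.3%, 40.2% and 39.0% after LPS. Ccrl2 went from 1.24% ± 0.508 to 18.6% ± 0.697 (SD, n = 3), Ccr1 from 13.4% ± 0.282 to 21.5% ± 1.31, and Xcr1 from 1.06% ± 0.311 to 5.79% ± 0.694. The shares of 7 of the 20 genes did not overlap between the groups, these 4 and those of Cxcr6, Ccr2 and Ccr6, the last pair with few counts. Shares have no counterpart over all genes here, but in CPM 23.7% of all tested genes did not overlap in the higher and 21.5% in the lower direction. The share of Cxcr3 was 11.9% ± 0.901 in control and 11.2% ± 1.09 in LPS-stimulated cells, and these overlapped. The summed level of the 20 genes was 51.4 ± 0.489 CPM per kilobase in control cells and 56.1 ± 4.97 with LPS. Shares of a sum depend on each other, and they are a description without a test.

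**Figure D3:**
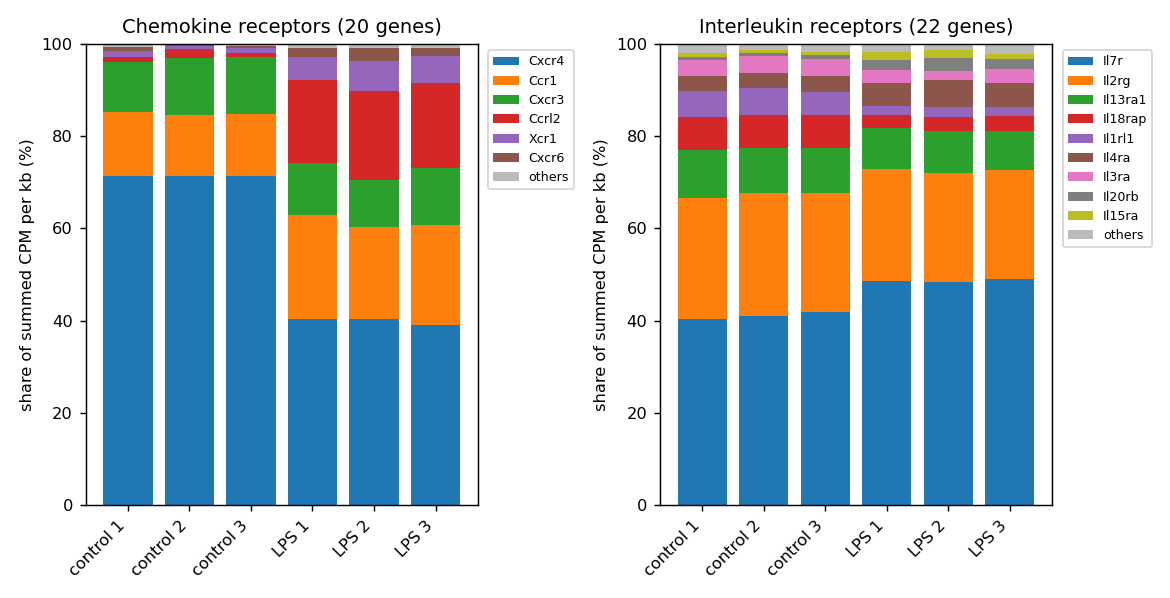
Share of each gene in the summed level per gene length (vertical axis, % of CPM per kilobase) in each of the 6 libraries, for 20 chemokine receptors on the left and 22 interleukin receptor chains on the right, with genes not named in the legend pooled in grey. The blue share of Cxcr4 is about 71% in the control libraries and 39.0% to 40.3% in the LPS libraries, where the red share of Ccrl2 is 18.02% to 19.39%.

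On chromosome 9 the genes Ccr9, Cxcr6, Xcr1, Ccr1, Ccr3 and Ccr2 lie in that order within 435 kb. Xcr1 and Ccr1 rose, as did Cxcr6 with the limit of the filter given above. Ccr9 did not exceed 3 counts and Ccr3 did not exceed 6. Any reads shared by Ccr2, Ccr3 and related receptor genes of this cluster could be divided or dropped. How the authors' counting treated such reads is not given in the sources used here. On chromosome 1, Il1rl2, Il1rl1, Il18r1 and Il18rap lie within 227 kb on the same strand. Il1rl1 and Il18rap fell, while Il1rl2 had more counts after LPS, as described below.

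Il7r and Il2rg had the highest levels per gene length among the 22 interleukin receptor chains of the list, which does not hold Csf2rb and Csf2rb2. All 5 tested genes of the common gamma chain group, which here includes the ligand Il15, rose, where 18.7% of all tested genes did. Il7r (ENSMUSG00000003882), the receptor chain for interleukin-7 and thymic stromal lymphopoietin, is located at 9505788 to 9530176 on chromosome 15 and had 2277, 2469 and 2802 reads in untreated cells and 3790, 3745 and 3727 after LPS. All LPS libraries lay above all control libraries, with little spread among themselves. Il7r rose from 141 ± 8.97 to 232 ± 7.29 CPM (SD, n = 3), a gain of 0.71 in log2 units (SE 0.05, edgeR adjusted p = 4.3e-08). Per gene length it stood at percentile 84.3 of tested genes in control cells and at percentile 90.1 with LPS.

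Il2rg (ENSMUSG00000031304), the common gamma chain, is located at 101264378 to 101268255 on the X chromosome and had 762, 822 and 887 reads in untreated cells and 978, 938 and 918 after LPS. Its level rose from 46.3 ± 1.64 to 58.4 ± 3.21 CPM (SD, n = 3), by 0.33 (SE 0.06, edgeR adjusted p = 5.0e-04), a smaller change than that of Il7r. Crlf2, which pairs with the Il7r chain in the receptor for thymic stromal lymphopoietin, had a log2 fold change of 0.17 (SE 0.10, edgeR adjusted p = 0.231). The ligand gene Il7 did not exceed 3 counts in any library.

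Il4ra (ENSMUSG00000030748), the chain that binds interleukin-4 and pairs with Il2rg or Il13ra1, lies on chromosome 7 from 125552120 to 125579474. Untreated cells gave 243, 255 and 306 reads and LPS-stimulated cells 513, 587 and 510. The groups did not overlap. Il4ra rose from 15.03 ± 1.24 to 33.1 ± 2.43 CPM (SD, n = 3), by 1.14 (SE 0.09, edgeR adjusted p = 1.4e-07), or 2.2-fold, which is short of the DEG threshold. Il13ra1 (ENSMUSG00000017057), the partner chain for interleukin-13, had 468, 471 and 517 counts against 547, 563 and 508 with LPS. In CPM its libraries did not overlap, from 27.3 ± 0.557 to 33.3 ± 2.07 (SD, n = 3), and it rose by 0.29 (SE 0.07, edgeR adjusted p = 0.00721). The ligand Il4 had 6 to 20 counts per library and a log2 fold change of -0.50 (SE 0.40, edgeR adjusted p = 0.372), and Il13 did not exceed 1 count.

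Il13ra2, a decoy receptor that binds interleukin-13 without signalling through STAT factors, was below the filter. It had 1, 0 and 0 reads in untreated cells and 27, 7 and 25 after LPS, so that LPS replicate 2 was lower than the others of its group. The ratio of the summed counts, scaled to library size, was 64.8 with LPS over control (exact 95% interval for counting error 11.2 to 2600). Il13ra2 reached the level of the filter in 2 LPS libraries and in 0 control libraries, so a filtered fit could test it only through its level with LPS. DESeq2, with its filter on the mean over all libraries, called Il13ra2 higher (adjusted p = 1.2e-04).

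Il15ra (ENSMUSG00000023206), which holds interleukin-15 at the surface of the producing cell and presents it to neighbours, is located at 11705290 to 11734317 on chromosome 2 and had 46, 31 and 35 reads in untreated cells and 123, 128 and 84 after LPS, the last in LPS replicate 3. Its level rose from 2.11 ± 0.503 to 6.91 ± 1.55 CPM (SD, n = 3), by 1.71 (SE 0.23, edgeR adjusted p = 3.1e-05), and it was not a DEG by glmTreat. Its ligand Il15 (ENSMUSG00000031712), on chromosome 8 from 82331632 to 82403222, had 25, 17 and 24 reads in untreated cells and 63, 46 and 42 after LPS. Il15 rose from 1.24 ± 0.252 to 3.12 ± 0.767 CPM (SD, n = 3), by 1.33 (SE 0.28, edgeR adjusted p = 0.00187). Both genes were therefore higher in each LPS library than in any control library. Il2rb, the signalling chain for interleukin-15 in the responding cell, had 3, 0 and 2 reads in untreated cells and 6, 3 and 7 after LPS, and was not tested. Il21r, also of this family, had 6, 2 and 6 counts against 1, 2 and 1.

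Il20rb (ENSMUSG00000044244), a chain of the receptors for interleukin-19, interleukin-20 and interleukin-24, is located at 100457719 to 100486788 on chromosome 9 and had 44, 34 and 50 reads in untreated cells and 155, 189 and 147 after LPS. All LPS libraries were above all control libraries, and Il20rb rose from 2.40 ± 0.410 to 10.1 ± 1.31 CPM (SD, n = 3), by 2.07 (SE 0.18, edgeR adjusted p = 2.9e-07). No count was found in any library for Il20ra or Il22ra1, the chains that Il20rb pairs with, nor for the ligands Il20 and Il24. Il19 did not exceed 5 counts.

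The tested members of the group of interleukin-18 and interleukin-1-like receptors, Il18rap and Il1rl1, both fell, where 15.7% of all tested genes did, and the other 3 of the group were not tested. Il1rl1 (ENSMUSG00000026069), which encodes ST2, the receptor for the alarmin interleukin-33, is located at 40429570 to 40465415 on chromosome 1 and had 461, 516 and 487 reads in untreated cells and 217, 246 and 230 after LPS. Il1rl1 fell from 27.5 ± 1.60 to 14.3 ± 0.660 CPM (SD, n = 3), with a log2 change of -0.94 (SE 0.09, edgeR adjusted p = 7.7e-07). Counts per gene do not separate the membrane form of ST2 from its soluble form. The ligand gene Il33 had 0 counts in every control library and 4, 2 and 3 with LPS.

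Il18rap (ENSMUSG00000026068), the accessory chain of the interleukin-18 receptor, lies on the same chromosome from 40515362 to 40551705. Untreated cells gave 598, 626 and 695 reads and LPS-stimulated cells 333, 333 and 355. It fell from 35.9 ± 1.30 to 21.01 ± 0.660 CPM (SD, n = 3), with a log2 change of -0.77 (SE 0.07, edgeR adjusted p = 9.8e-07). The ligand-binding chain Il18r1, which lies between Il1rl1 and Il18rap, had 4, 2 and 0 reads in untreated cells and 0, 4 and 0 after LPS. Per gene length the level of Il18rap was 5.32 CPM per kilobase in control cells, beside 0.024 for Il18r1. The ligand Il18 went in the other direction, from 0.596 ± 0.237 to 2.16 ± 0.448 CPM (SD, n = 3), by 1.84 (SE 0.36). It reached the level of the filter in 2 control and 3 LPS libraries, and DESeq2 called it higher (adjusted p = 0.00114). Il18bp, a secreted protein that neutralizes interleukin-18, had 0, 8 and 5 reads in untreated cells and 19, 7 and 9 after LPS. The groups overlapped, and Il18bp was not tested. It lies opposite Numa1, a gene with 2074 to 3396 counts per library.

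Il1rl2, the receptor for the interleukin-36 cytokines, was below the filter. It had 1, 1 and 0 reads in untreated cells and 22, 8 and 17 after LPS. Every LPS library was higher, and the scaled ratio of summed counts was 25.8 (exact 95% interval for counting error 6.76 to 219). As for Il13ra2, the level of the filter was reached in 2 LPS libraries and in 0 control libraries, and DESeq2 called Il1rl2 higher (adjusted p = 0.00104). Of the ligand genes, Il1f6 and Il1f9, which encode interleukin-36 alpha and gamma, also had more counts after LPS, while Il1f8, which encodes interleukin-36 beta, and Il1f5, which encodes the receptor antagonist, had no count in any library. Il1f6 had 0, 0 and 2 reads in untreated cells and 15, 18 and 15 after LPS, a scaled ratio of 26.4 (exact 95% interval for counting error 6.91 to 224). Il1f9 had 0 counts in every control library and 23, 27 and 22 with LPS, which makes it at least 8.77-fold higher against 3 counts per control library. Both ligand genes passed the filter through their LPS libraries alone, so their calls by edgeR are not given. DESeq2 called both higher (adjusted p = 8.1e-04 for Il1f6 and 4.8e-07 for Il1f9). Il1rap, the accessory chain of the receptors for interleukin-33 and interleukin-36, had a log2 fold change of 0.09 (SE 0.11, edgeR adjusted p = 0.572).

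**Figure D4:**
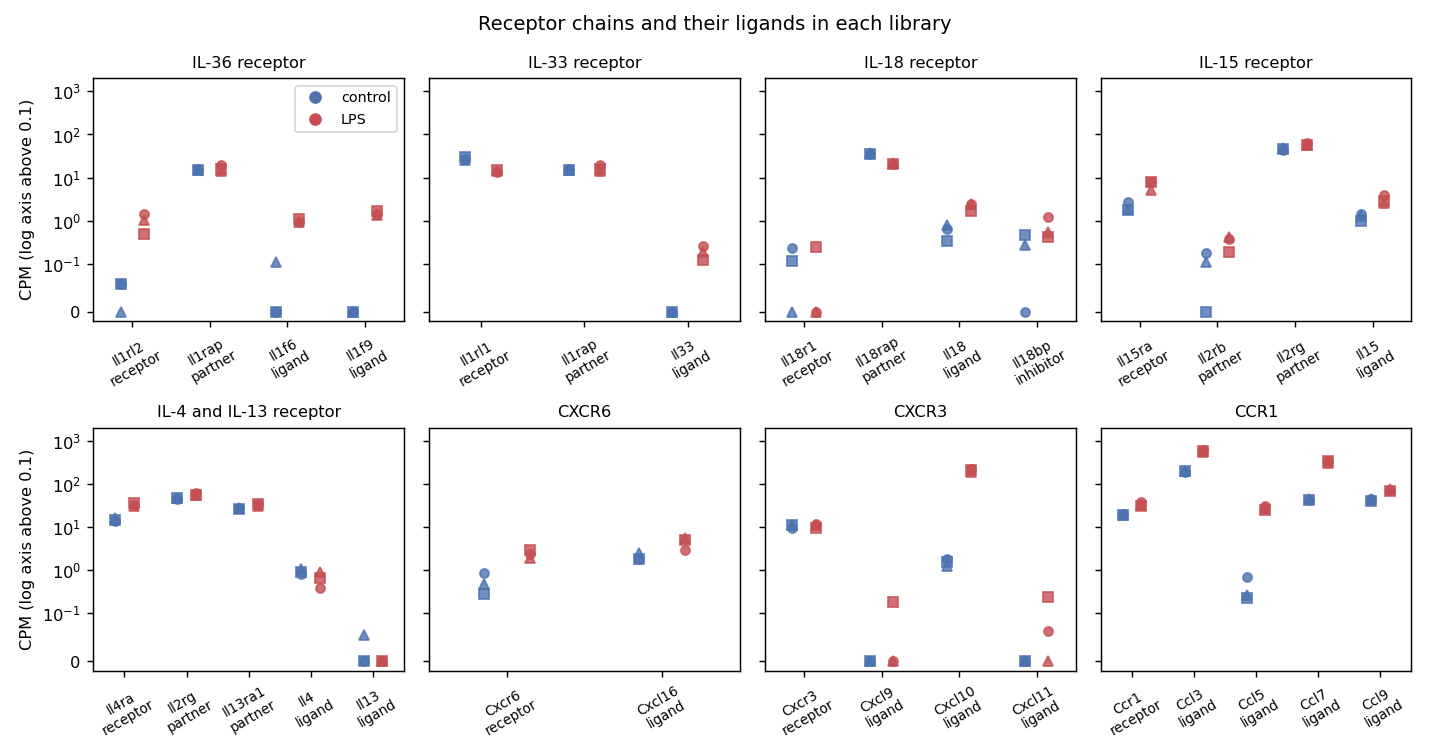
CPM in each library (vertical axis, logarithmic above 0.1 and linear below) for the chains, partners and ligands of 8 receptors, with control libraries in blue, LPS libraries in red and symbols marking replicates 1, 2 and 3 as circle, square and triangle. Il1rl2, Il1f6 and Il1f9 are higher in every LPS library than in any control library, whereas Il1rl1 and Il18rap are lower, and the libraries of Cxcr3 overlap while those of Cxcl10 do not.

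The remaining tested receptors did not pass the test. Il3ra, the chain for interleukin-3, had 119, 143 and 158 reads in untreated cells and 136, 101 and 144 after LPS, with a log2 fold change of -0.0025 (SE 0.14, edgeR adjusted p = 0.992). Its partner chains Csf2rb and Csf2rb2 are close copies, and reads shared by them could be divided or dropped. Csf2rb rose by 0.49 (SE 0.04, edgeR adjusted p = 2.4e-07) and Csf2rb2 by 0.68 (SE 0.05, edgeR adjusted p = 6.6e-08). Il17ra, the common chain of the interleukin-17 receptors, spread widely, with 32, 55 and 82 reads in untreated cells and 36, 49 and 21 after LPS (log2 fold change -0.52, SE 0.33, edgeR adjusted p = 0.257). Its partner Il17rc had 15, 9 and 14 counts against 5, 8 and 23 (log2 fold change 0.05, SE 0.49, edgeR adjusted p = 0.949). The ligand Il17a had no count. Il12rb2, a chain of the interleukin-12 receptor, had 17, 15 and 12 counts against 11, 16 and 15 (log2 fold change 0.06, SE 0.37, edgeR adjusted p = 0.916) and lies opposite Serbp1, which had 13298 to 14964 counts per library. The other chain, Il12rb1, had 8, 6 and 8 reads in untreated cells and 1, 0 and 3 after LPS. It was below the filter, its ratio was 0.20 (exact 95% interval for counting error 0.05 to 0.588), and DESeq2 did not call it (adjusted p = 0.155). Il27ra had 24 counts in each group. The counts of Il11ra1, at most 5 per library, are uncertain because the gene has near-identical copies and overlaps several other genes.

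As shares of the summed CPM per kilobase of the 22 interleukin receptor chains, Il7r took 41.0% ± 0.803 in control cells and 48.6% ± 0.400 with LPS (SD, n = 3). Il2rg took 26.3% ± 0.390 and 23.9% ± 0.460, Il18rap 7.22% ± 0.073 and 3.05% ± 0.159, and Il1rl1 5.41% ± 0.446 and 2.03% ± 0.137. The shares of 14 of the 22 chains did not overlap between the groups, 7 higher and 7 lower with LPS, and 5 of the 14 (Il13ra2, Il17rb, Il1rl2, Il12rb1 and Il21r) were below the filter on low counts. In CPM, 23.7% of all tested genes did not overlap in the higher and 21.5% in the lower direction. The lower shares include that of Il3ra, which did not pass the test, and those of Il2rg and Il13ra1, whose own levels rose. The summed level was 73.8 ± 3.24 CPM per kilobase in control cells and 102 ± 3.66 with LPS. In control cells Cxcr4, Il7r, Il2rg, Il13ra1 and Ccr1, in that order, had the highest levels per gene length among the 19 tested genes. With LPS the order was Il7r, Il2rg, Cxcr4, Ccr1 and Ccrl2, at 10.4 CPM per kilobase, followed by Il13ra1 at 8.97.

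Lists of ligands and of signalling genes for these receptors were examined in the same fit, where 18.7% of all tested genes were higher and 15.7% lower. Of 34 chemokine ligand genes, 14 were tested, of which 10 rose, 1 fell (Cxcl14) and 3 did not pass the test, with a median log2 fold change of 1.64 over the tested genes. Ccl5 and Ccl12 reached the level of the filter in all 3 LPS libraries but not in all 3 control libraries, and without them 8 of 12 rose with a median of 1.34. Of 27 interleukin ligand genes, 5 were tested, and 4 of these (Il1f6, Il1f9, Il18 and Il4) reached the level of the filter throughout 1 group only. The other, Ebi3, rose by 0.79 (SE 0.27, edgeR adjusted p = 0.0334), and 12 of the 27 had no count in any library. Of 14 other receptor chains of these families, 7 were tested, of which 3 rose (Csf2rb, Csf2rb2 and Il10rb), 1 fell (Il6st) and 3 did not pass the test, with a median of 0.165. Cx3cr1 and Ackr4, chemokine receptors that stood on the same list, are left out of this count. It includes Sigirr, which did not pass the test and reached the level of the filter in 3 control libraries but in 1 LPS library. Of 23 signalling genes, 21 were tested, of which 8 rose, 4 fell and 9 did not pass the test, with a median of 0.10. Without Socs1, which reached the level of the filter in its LPS libraries alone, 7 of 20 rose with a median of 0.06. The feedback inhibitor Socs3 rose by 2.08 (SE 0.05, edgeR adjusted p = 8.2e-14) and the kinase Tyk2 by 0.92 (SE 0.06, edgeR adjusted p = 8.1e-09). Jak3, the kinase bound to the common gamma chain, fell by 0.30 (SE 0.08, edgeR adjusted p = 0.00719). Stat6, the factor used by the interleukin-4 receptor, had a log2 fold change of 0.02 (SE 0.04, edgeR adjusted p = 0.713). Arrb1, a beta-arrestin that binds chemokine receptors, fell by 0.50 (SE 0.04, edgeR adjusted p = 3.7e-07). The other beta-arrestin of the list, Arrb2, did not pass the test (log2 fold change -0.10, SE 0.05, edgeR adjusted p = 0.137).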

How the data were processed

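RNA-seq of 6 N9 microglia libraries was analysed, 3 per group, grouped by the labels of the series. The authors deposited read counts per gene as whole numbers without normalization, and the submitters' processing notes name featureCounts version 1.5.0-p3 and the build mm10. The aligner, the use of strand and the annotation release are not given in the sources used here. The positions of all 44 genes are those of GENCODE release M21 on GRCm38. A deposited table of the authors' own DESeq2 comparison, with fold changes and p-values, was not used.

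The test was edgeR version 4.0.16 under R 4.3.3, quasi-likelihood, with TMM normalization, the filter filterByExpr (minimum count 10), a prior count of 0.125 and no covariate. P-values were adjusted by Benjamini-Hochberg across the 12296 genes tested. The standard error is the size of the log2 fold change divided by the square root of F. CPM are counts over TMM-scaled library sizes, and levels between genes were divided by the gene length in the deposited table. No library was a copy of another, the chi-square per gene between replicates being 3.47 to 7.35. Genes named were all members by their detection class, with full values for those called and for the 5 highest per gene length, and the ligands, partner chains and signalling genes listed for them. The members, lists and tests were chosen with earlier results of these data known. The fit was tested on simulated counts with changes of known size. Alternatives were DESeq2 version 1.42.0, RLE factors, other filters, a prior count of 2, robust dispersion, glmTreat, a replicate block and each library left out in turn. Figures used matplotlib version 3.10.9 and intervals scipy version 1.17.1.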

Additional observations from a re-analysis of the deposited data

How the results depend on the processing

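All 14 called genes kept their direction and stayed called under every alternative that tested them at the threshold of 0.05. The count of the 44 genes that were higher with LPS, Il15 included, lay between 11 and 13 in all of them, and that of genes lower was 3 throughout. With each library left out in turn, DEG among the 44 genes numbered 5 to 7, the additions being Il13ra2 and Il1rl2, which filtered fits tested only through their LPS libraries. By glmTreat, with 1.5 as the null value, 3 of the 44 genes (Ccrl2, Il20rb and Xcr1) and 183 of all genes remained DEG, in place of 5 and 326, so that Cxcr6 and Il15ra do not pass it. Without division by gene length, 4 of the 5 most abundant genes by the mean of both groups were the same. Among the genes that did not pass the test, the sign of the log2 fold change turned for 4. It ran from -0.0496 to 0.115 for Cxcr3, from -0.0931 to 0.146 for Il3ra, from -0.0981 to 0.198 for Il12rb2 and from -0.808 to 0.403 for Il17rc with each library left out in turn, and none of these fits called them. Il17ra kept its sign, from -0.819 without LPS replicate 2 to -0.2004 without control replicate 3, and was not called in any of these fits. The labels do not say whether the replicate numbers pair the samples. Deviations from the group means correlated at 0.14, 0.06 and -0.004 for replicates 1, 2 and 3 over 12296 genes. Such deviations cancel within each group, so these correlations are tied to each other and cannot decide on pairing. Control replicate 2 correlated best with LPS replicate 3 (0.09). With the replicate block the counts stayed at 11 and 3, and Il17rc had a log2 fold change of -0.0385. In all genes the block gave 2454 higher and 2020 lower in place of 2294 and 1927. Depth limits the 25 genes below the filter, of which DESeq2 called Il13ra2 and Il1rl2. The edgeR fit with no filter took in 22311 genes and estimated no spread of single genes (infinite prior degrees of freedom, 10.1 with the filter), so its p-values are not printed.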
